A study of Mus musculus with 6 samples.

Results

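Metabotropic glutamate receptors, G protein-coupled receptors for the transmitter glutamate, were followed in RNA of the mouse primary visual cortex (V1) after closure of an eye. The genes are Grm2, Grm3, Grm4, Grm5, Grm7 and Grm8, chosen by symbol, and they account for 6 of the 52636 genes in the count table. Circular RNAs (circRNAs), closed loops recognised by reads across a back-splice junction, were taken where the table of 1488 circRNAs names one of these genes as host, which gave 6. Both groups came from the same 3 C57BL/6J mice at postnatal day 28, whose right eye had been sutured for 3 days. Contralateral libraries (left V1) and ipsilateral libraries (right V1) numbered 3 each, 1 of each kind per mouse, and were made from total RNA of a micro-dissected block of tissue. No mouse without a sutured eye is among them, so each comparison is between the hemispheres of deprived animals. The ipsilateral hemisphere also receives some input from the sutured eye.

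These receptors act as dimers and fall into groups by sequence and coupling. Group I receptors (Grm5 here) sit mainly at the edge of the postsynaptic density and act through Gq and phospholipase C to release calcium from internal stores, and they bind Homer scaffolds. Group II (Grm2, Grm3) and group III (Grm4, Grm7, Grm8) act through Gi/o to lower cyclic AMP and transmitter release, mostly from axons, and Grm3 is also made by astrocytes. In visual cortex, group I signalling is best known for long-term depression of synapses and for its study in ocular dominance plasticity.

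Libraries held 17849253 to 32213500 reads assigned to genes and 13428 to 26867 back-splice reads. Reads of mt-Rnr1, a mitochondrial ribosomal RNA, split the libraries across groups and mice: contralateral 1, ipsilateral 1 and ipsilateral 3 held 354 to 718, and the other 3 (contralateral 2 and 3, ipsilateral 2) held 41879 to 155381. Receptor differences within each of these sets are given below beside the pooled ones. Of 85 listed markers of 15 cell types or neighbouring regions, 83 were tested and none was at 0 in all libraries. The summed level of 6 markers of glutamatergic neurons lay between 4463 and 4962 CPM (gene reads scaled to library size) contralaterally and between 3727 and 5092 ipsilaterally. In 3 marker lists all contralateral sums lay below all ipsilateral ones: GABAergic interneurons (325 to 380 against 456 to 537 CPM), layer 5 and 6 neurons (200 to 256 against 283 to 290) and the neighbouring retrosplenial cortex (46.5 to 66.1 against 72.9 to 92.9). Log2 fold changes were negative for 7 of 8 interneuron markers, 6 of 7 of layers 5 and 6, and 2 of 4 retrosplenial ones. The rest of these lists were positive. Most of the gap in the retrosplenial sum came from Nr4a2, at 10.0, 25.2 and 22.9 CPM contralaterally and 34.4, 51.5 and 36.3 ipsilaterally. That sum therefore does not show a shift of its whole list. No marker passed in edgeR without the mouse as a block. With it 8 of 83 were lower and 1 higher: 3 of 8 of interneurons (Vip, Gad1, Gad2), 2 of 7 of layers 5 and 6 (Ccn2, Etv1), 2 of 4 of retrosplenial cortex (Cbln4, Nr4a2), and, of 5 of layers 2 and 3, Lamp5 lower and Otof higher. In that fit 0.698% of all genes were lower and 0.195% higher. In RNA of a whole piece of tissue, fewer cells of a type and less RNA per cell cannot be told apart.

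The receptor circRNAs are shown first by their junctions, because that short stretch is what sets a circle apart from the linear messenger of its host. Lower case gives the last 15 bases of the circle's final exon and capitals the first 15 bases of its first exon, both read from GENCODE M21 transcripts (GRCm38) and written 5′ to 3′ as the RNA's DNA letters.
Grm3 exons 4 to 5: ccacatattctcagtCTCCATTCAACCCAA
Grm5 exons 2 to 3: ctgtgcacacagaagGTGATTTTACCCAAA
Grm5 exons 3 to 6: ctgacgacttgacagTGATGGCTGGGCTGA
Grm7 exons 2 to 4: gagcgactgtggaagATACCTCAGATTAGT
Grm7 exon 8: caatcagcagaaaagATAGAGGACATGCAG
A 6th circRNA joins the start of Grm7 exon 2 to a point 628 bases into the following intron. No junction is printed for it. Both ends of each of the 5 printed circles match annotated exon borders of the host to the base.

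All 6 receptor genes passed the low-count filter, and none passed the test between hemispheres. With edgeR's quasi-likelihood test and Benjamini-Hochberg adjustment over 20473 genes, 0 of 6 passed an adjusted p of 0.05. The background was 26 genes lower contralaterally (0.127%) and 0 higher (0.0%). None of the 6 had an unadjusted p under 0.05, against 6.15% of all genes. DESeq2 and limma-voom also passed 0 of 6. With the mouse as a block, 0 of 6 passed where 183 genes passed (0.894%), 143 lower (0.698%) and 40 higher (0.195%). In that fit 1 receptor, Grm4, had an unadjusted p under 0.05 (background 13.2%). The median log2 fold change, contralateral against ipsilateral, was -0.05 over the receptors and 0.03 over all tested genes, and 3 of the 6 receptors had a negative value against 44.6% of all genes. A p that misses the threshold does not show equality, so the 95% interval of each fold change is given.

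**Figure D1:**
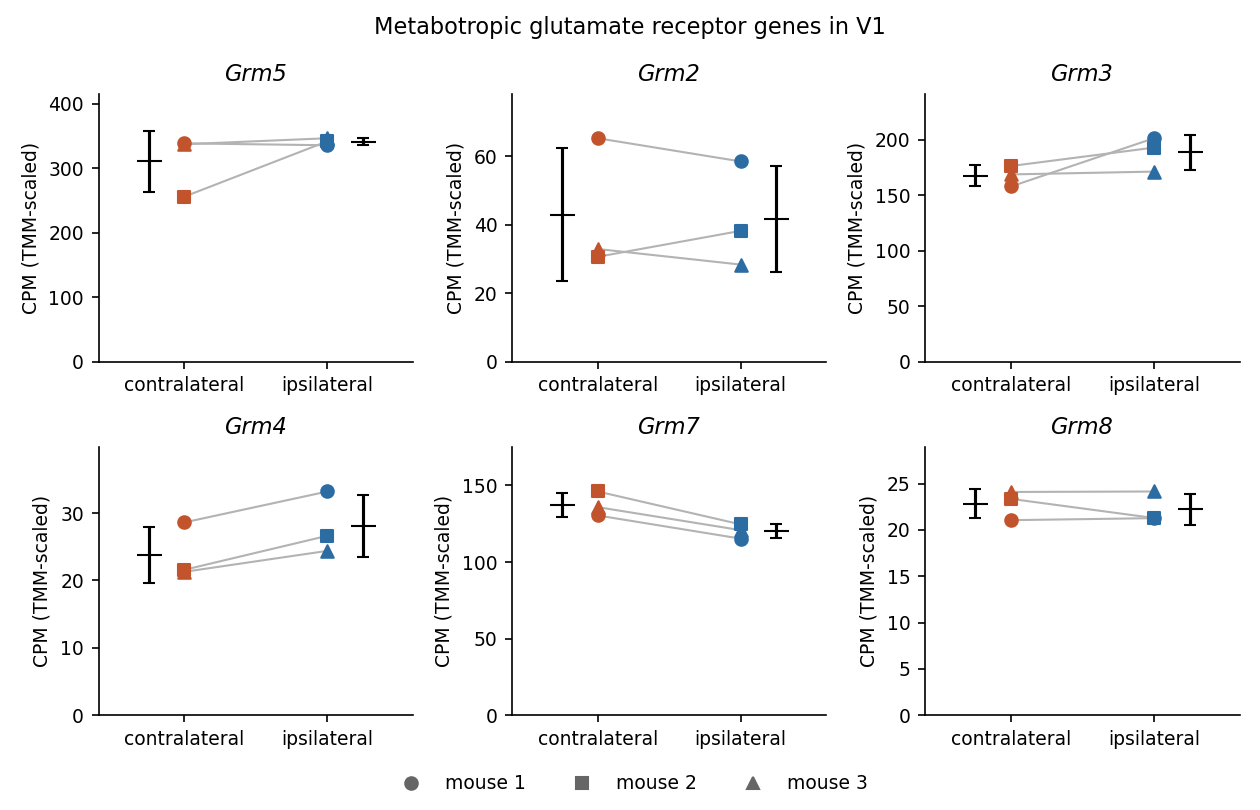
CPM of each receptor gene (linear axis from 0) in 3 contralateral and 3 ipsilateral libraries; lines join the hemispheres of a mouse, symbols give the mouse, and bars give mean ± SD. Grm7 is the gene whose 3 contralateral values (130 to 146 CPM) all lie above the 3 ipsilateral ones (115 to 125), and Grm2 is set apart in mouse 1 in both hemispheres.

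Grm5, the group I receptor, lies at chr7:87584168-88134907 on the plus strand (ENSMUSG00000049583). Contralateral libraries 1 to 3 had 339, 256 and 337 CPM with TMM scaling, and ipsilateral libraries 1 to 3 had 336, 342 and 347. Contralateral library 2 was the low one, and the other 5 lay within 336 to 347, so the groups overlapped. The means were 311 ± 47.3 and 341 ± 5.47 (SD, n = 3 each). The log2 fold change was -0.14 (SE 0.14, 95% interval -0.43 to 0.16, adjusted p = 0.885 by edgeR). Without contralateral library 2 it was -0.02. In fold terms the interval runs from 0.742 to 1.12. Within the set low in mt-Rnr1 the log2 difference was -0.02, and within the high set, which holds contralateral library 2, it was -0.21.

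Grm2, the group II receptor known as a presynaptic brake on glutamate release, lies at chr9:106643095-106656082 on the minus strand (ENSMUSG00000023192). Its levels were 65.3, 30.7 and 33.0 CPM contralaterally and 58.5, 38.3 and 28.4 CPM ipsilaterally. Both libraries of mouse 1 were high and the other 4 lay within 28.4 to 38.3 CPM, so the values followed the animal and not the hemisphere. The contralateral mean was 43.0 ± 19.4 CPM and the ipsilateral 41.7 ± 15.4 (SD, n = 3 each). Contralateral against ipsilateral, the log2 fold change was 0.05 (SE 0.29, 95% interval -0.58 to 0.67, adjusted p = 0.986 by edgeR). With the mouse as a block it was 0.02, and the SE was 0.11. The sign did not hold across libraries: the log2 difference was 0.58 in the set low in mt-Rnr1 and -0.27 in the high set, where the low set holds both libraries of mouse 1, and leaving out contralateral library 1 gave -0.39. Gm28111, on the other strand, shares 470 exon bases with Grm2 and had 37 reads in all libraries against 5645 of Grm2.

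Grm3, the group II receptor of both neurons and astrocytes, which also responds to the peptide transmitter NAAG, lies at chr5:9485541-9725170 on the minus strand (ENSMUSG00000003974). It stood at 158, 176 and 169 CPM contralaterally and at 201, 193 and 171 CPM ipsilaterally. The contralateral value was the lower one in each of 3 mice (background 17.3% of genes), but contralateral library 2 lay above ipsilateral library 3, so the groups overlapped. That order depended on the measure: as TPM (length-corrected shares of reads), mouse 2 had 216 contralaterally and 210 ipsilaterally. Within mice 1 to 3 the log2 difference was -0.35, -0.13 and -0.02, so its size ranged from clear in mouse 1 to almost none in mouse 3. Over all libraries the log2 fold change was -0.17 (SE 0.12, 95% interval -0.43 to 0.09, adjusted p = 0.846 by edgeR), with means of 168 ± 9.26 and 188 ± 15.5 CPM (SD, n = 3 each). The sets low and high in mt-Rnr1 gave -0.25 and -0.17. The 8 astrocyte markers summed to 9522 to 12093 CPM contralaterally and 10041 to 10465 ipsilaterally, and 0 of 8 passed with or without the mouse block.

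Grm4, a group III receptor best known from cerebellar granule cell axons, lies at chr17:27422387-27521403 on the minus strand (ENSMUSG00000063239), and the deposited table ends it at 27513341. Its levels were 28.6, 21.6 and 21.3 CPM contralaterally and 33.2, 26.6 and 24.4 CPM ipsilaterally. As with Grm3 in CPM, each mouse had less on the contralateral side, and the spread between mice was larger than the difference between hemispheres, so the groups overlapped. Grm4 differed by similar amounts in the 3 mice, with log2 values of -0.21, -0.30 and -0.20. The means were 23.8 ± 4.15 and 28.1 ± 4.58 CPM (SD, n = 3 each). Without a mouse block the log2 fold change was -0.24 (SE 0.17, 95% interval -0.60 to 0.13, adjusted p = 0.846 by edgeR). The block left it at -0.24 and narrowed its interval to -0.46 to -0.02, with an unadjusted p of 0.0367 and an adjusted p of 0.345 by edgeR. The call did not change. In the set low in mt-Rnr1 the log2 difference was -0.02 and in the high set -0.32. Of 5 cerebellar markers 3 were tested and 0 passed, and these 3 summed to 17.9 to 19.5 CPM contralaterally and 13.8 to 21.7 ipsilaterally.

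Grm7, a low-affinity group III receptor of the presynaptic active zone, lies at chr6:110645581-111567230 on the plus strand (ENSMUSG00000056755). It measured 130, 146 and 136 CPM contralaterally and 115, 125 and 121 CPM ipsilaterally. All 3 contralateral libraries lay above all 3 ipsilateral ones, which no other receptor gene did and which held for 6.7% of all tested genes. It was higher contralaterally in each of 3 mice (background 19.2%), by 1.13-fold, 1.17-fold and 1.12-fold. As TPM, shares of length-corrected reads, the groups overlapped, at 90.6, 92.6 and 79.9 contralaterally and 77.6, 70.2 and 94.5 ipsilaterally. Mouse 3 was then the lower one on the contralateral side. The means were 137 ± 7.94 and 120 ± 4.68 CPM (SD, n = 3 each). The log2 fold change of 0.19 (SE 0.11, 95% interval -0.05 to 0.44) did not pass, with an adjusted p of 0.826 by edgeR. With the mouse as a block its adjusted p was 0.380 by edgeR and its unadjusted p 0.0517. The sets low and high in mt-Rnr1 gave log2 differences of 0.13 and 0.17. Summed CPM of the interneuron, layer 5 and 6 and retrosplenial markers, lower on the contralateral side as given above, also separated the groups. The retrosplenial sum did so largely through Nr4a2. The part of these markers in the Grm7 values was not tested. Gm20387, on the other strand, shares 130 exon bases with Grm7 and had 618 reads in all libraries against 17387 of Grm7.

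Grm8, the remaining group III receptor, lies at chr6:27275119-28135178 on the minus strand (ENSMUSG00000024211). In CPM its levels were the tightest of the 6 genes, at 21.1, 23.3 and 24.1 contralaterally and 21.3, 21.3 and 24.1 ipsilaterally. As TPM they ran from 7.14 to 11.2. The groups overlapped, and in mice 1 and 3 the hemispheres were nearly equal, with log2 differences of -0.01 and -0.00. Its log2 fold change was 0.04 (SE 0.14, 95% interval -0.26 to 0.34, adjusted p = 0.971 by edgeR). It was -0.12 in the set low in mt-Rnr1 and 0.15 in the high set.

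**Figure D2:**
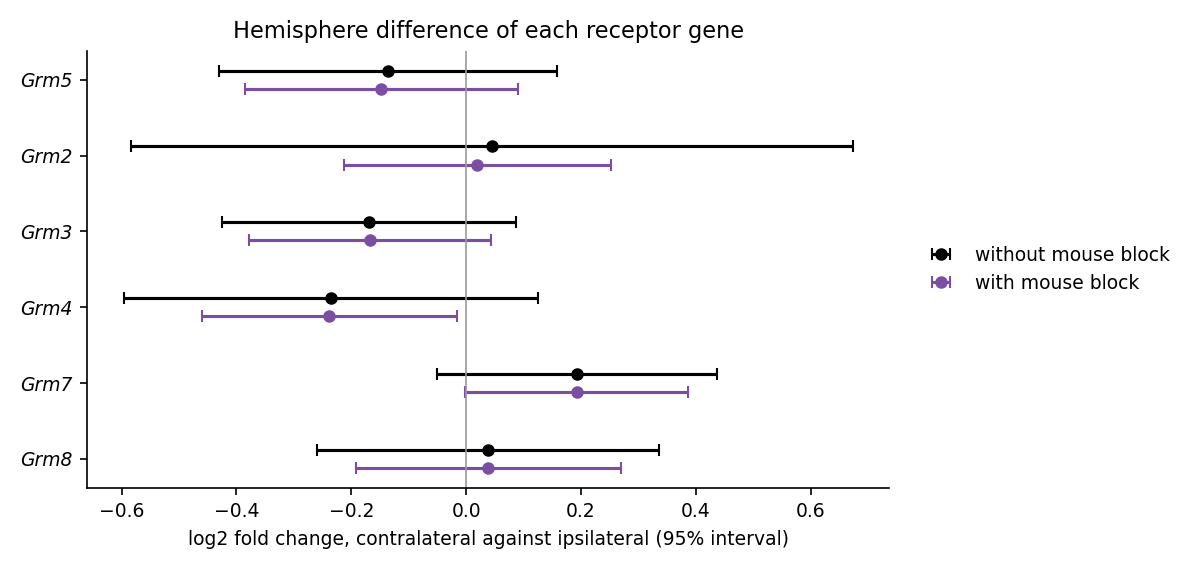
Log2 fold change of each receptor gene, contralateral against ipsilateral, from edgeR without (black) and with (purple) the mouse as a block; bars are 95% intervals and the vertical line marks no difference. The block narrows the interval of Grm2 most, from -0.58 to 0.67 down to -0.21 to 0.25, and puts the upper end of that of Grm4 at -0.02.

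The width of the Grm2 interval led to a comparison added after the values were seen, that of the 3 mice with each other. By the test of both mouse terms together, 1 receptor gene of 6 differed between mice, Grm2 (edgeR, adjusted p = 0.000465), against a background of 1313 genes (6.41%). Its mean over both hemispheres was 61.9 CPM in mouse 1, 34.5 in mouse 2 and 30.7 in mouse 3. The log2 difference of mouse 3 from mouse 1 was -1.01 (SE 0.14, adjusted p = 0.000337 by edgeR, background 8.03%), and that of mouse 2 from mouse 1 was -0.84 (SE 0.14, adjusted p = 0.00250, background 4.01%). Mouse 3 against mouse 2 did not pass, at -0.18 (adjusted p = 0.793 by edgeR). Over 8 other settings, which left out each library in turn or used RLE scaling or a DESeq2 likelihood ratio test, the adjusted p of Grm2 lay between 9.36e-10 and 0.00442.

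Grm4 followed the same order, with means of 30.9, 24.1 and 22.8 CPM in mice 1 to 3, and its adjusted p over both terms was 0.0809 by edgeR. Between pairs, mouse 3 was below mouse 1 at a log2 difference of -0.44 (SE 0.13, adjusted p = 0.0459 by edgeR), and mouse 2 against mouse 1 did not pass (-0.36, adjusted p = 0.128). The adjusted p of Grm4 over both terms was under 0.05 without contralateral library 2 (0.0316 by edgeR) or without ipsilateral library 2 (0.0175). That of Grm5 was under 0.05 without ipsilateral library 2 (0.0303 by edgeR). The remaining receptors had adjusted p-values from 0.565 to 0.812. A mouse contributed just its own pair of libraries, so a difference between animals cannot be told apart from anything else those 2 libraries share. Markers moved between mice as well: 20 of 83 passed the same test, or 24.1%. Oligodendrocyte precursors had 4 of 5 (Olig1, Olig2, Cspg4, C1ql1), oligodendrocytes 3 of 7, astrocytes 2 of 8 and vascular cells 2 of 6, and no other list had more than 1. Among the 6 markers of glutamatergic neurons 1 passed, Slc17a7, a vesicular glutamate transporter, at 1064, 662 and 750 CPM contralaterally and 1182, 897 and 732 ipsilaterally. The part of such markers in the Grm2 values was not tested.

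Levels between genes were compared per length, as TPM, each gene's share of length-corrected reads, from the deposited counts and exon lengths. Grm3 was the most abundant receptor messenger at a mean of 225 ± 28.6 TPM over 6 libraries (SD), above 97.8% of tested genes, and made up 45.6% of the summed receptor TPM. Grm5 followed at 123 ± 21.8 TPM and Grm7 at 84.2 ± 9.75 TPM, or 24.9% and 17.2% of the sum. Then came Grm2 at 33.6 ± 13.7 TPM, Grm4 at 18.9 ± 4.32 and Grm8 at 8.81 ± 1.34, and the last lay above 42.0% of tested genes. Grm3 therefore exceeded Grm8 25.5-fold by these means.

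The order was the same in every library: each gene lay above the next in 6 of 6. Even so, neighbours differed in how far apart they were. The ranges of Grm3 and Grm5, of Grm7 and Grm2, and of Grm4 and Grm8 did not overlap over the 6 libraries. Those of Grm5 and Grm7 did, and in contralateral library 2 they stood at 93.3 and 92.6 TPM, a log2 difference of 0.01. Grm2 and Grm4 also overlapped, since Grm2 in mice 2 and 3 (23.3 to 26.7 TPM) was near the level of Grm4 in mouse 1 (up to 24.8 TPM). By group, a group II gene led, the group I gene was second, and the group III genes spanned from the third to the last place. The sum over the 6 genes was 523, 449 and 431 TPM contralaterally and 550, 441 and 568 TPM ipsilaterally, and these overlapped.

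**Figure D3:**
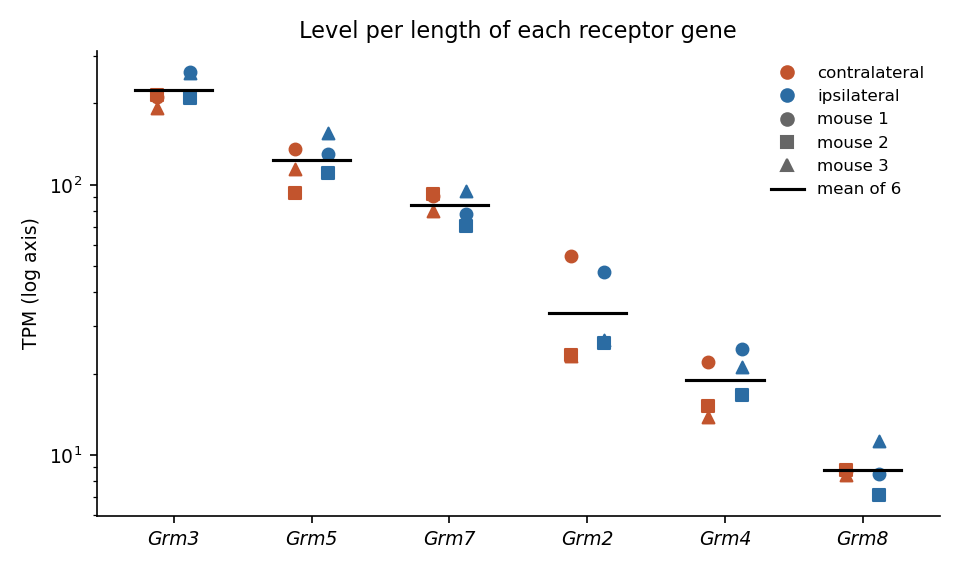
TPM of each receptor gene on a log axis in 6 libraries (color for hemisphere, symbol for mouse), with the mean of 6 as a bar. The order from Grm3 (225 TPM) to Grm8 (8.81 TPM) is the same in each library, and Grm2 shows mouse 1 above the other 4 points.

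Across the 6 libraries the receptor genes did not move as a block. As a description over 6 paired libraries that share depth and scaling, the Pearson correlation of log2 CPM was 0.83 between Grm2 and Grm4, both high in mouse 1. Grm8 ran opposite to both, at -0.86 with Grm2 and -0.82 with Grm4. Grm7 ran opposite to Grm4 (-0.78) and to Grm5 (-0.75). Within group II, Grm2 and Grm3 were at 0.07, and the group III genes Grm4 and Grm7 had opposite signs of the hemisphere difference.

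Genes with the most similar profiles were sought among 12102 tested genes with a mean of at least 5 CPM, by Pearson correlation of log2 CPM over the 6 libraries. With so many genes and 6 libraries that share depth and scaling, the values serve as a description. Grm2 was most like Zdhhc7 (0.999) and Tmem94 (0.998), and Grm4 was most like Ap1s1 (0.999) and Tyro3 (0.995). Tyro3, a receptor tyrosine kinase, stood at 177, 133 and 129 CPM contralaterally and 222, 165 and 150 ipsilaterally, the same order of mice as Grm4. Grm3 was nearest to Tmem132c (0.997) and Rcn2 (0.969), and Grm5 to Mapre2 (0.997) and Ywhah (0.994). Grm7 was nearest to Smg6 and Mmaa (both 0.988), after 1 predicted gene was passed over. Smg6, an endonuclease of nonsense-mediated decay, measured 65.3, 73.0 and 66.5 CPM contralaterally and 55.8, 62.4 and 60.5 ipsilaterally, without overlap. Grm8 was nearest to Olfr1564 (0.989) and Osbpl9 (0.975), with 4 predicted genes passed over.

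CircRNAs from these genes were rare. The 6 receptor circRNAs held 245 of 109125 back-splice reads over all libraries (0.225%), and 187 other circRNAs each had more reads than the most abundant of them. Grm7 hosted 3, Grm5 2 and Grm3 1, while Grm2, Grm4 and Grm8 hosted none in the table, which lists just circRNAs with a read in every library. With edgeR, 0 of the 5 receptor circRNAs that could be tested passed, against a background of 0 of 1468 (0.0%). All 5 had an unadjusted p above 0.05, which 52 of the 1468 did not (3.54%). The mouse block also passed 0 of 1468, with 66 under 0.05 unadjusted (4.5%), and DESeq2 passed 0. The hosts are the 3 receptor genes with the highest TPM. Back-splice reads are counted without molecular identifiers here, so the Poisson intervals below cover counting error only.

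The Grm5 circle of exons 2 to 3 (transcript Grm5-202, chr7:87596116-87603201) is the most abundant, with 103 reads. It is 1003 bases long when spliced, from exons of 147 and 856 bases, and holds the annotated start codon. Its junction, printed above, joins the end of exon 3 to the start of exon 2. Its reads were 9, 12 and 37 contralaterally and 13, 19 and 13 ipsilaterally. Contralateral library 3 stood apart, and its 37 reads have a 95% Poisson interval of 26.1 to 51.0, above the count of every other library. In CPM of back-splice reads with TMM scaling, the values were 656, 691 and 1913 contralaterally and 922, 731 and 723 ipsilaterally, so without that library the contralateral values were the lower ones. Its log2 fold change was 0.49 (SE 0.46, adjusted p = 0.999 by edgeR), and -0.17 without contralateral library 3. In the set low in mt-Rnr1 it was -0.27 and in the high set, which holds that library, 0.87. Relative to its host, the circle had 5.06 reads per 1000 Grm5 reads in contralateral library 3 and 1.32 to 2.51 in the other 5.

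A second Grm5 circle, of exons 3 to 6 (Grm5-201, chr7:87975135-88040109), has 779 coding bases from 4 exons. Its exon numbers are those of another transcript, and it lies downstream of the first circle, with no bases in common. It had 1, 1 and 2 reads contralaterally and 1, 1 and 4 ipsilaterally. Just 2 libraries reached 2 reads, so it was not tested.

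The Grm3 circle of exons 4 to 5 (Grm3-201, chr5:9504725-9512524, minus strand) is 1242 bases long, from exons of 1067 and 175 bases. All of them are coding and the length is a multiple of 3. It had 8, 8 and 9 reads contralaterally and 5, 8 and 6 ipsilaterally, and a count of 8 has a 95% Poisson interval of 3.45 to 15.8. Per 1000 Grm3 reads the values were 2.52, 2.43 and 2.46 contralaterally and 1.24, 1.34 and 1.44 ipsilaterally. These groups did not overlap, with means of 2.47 ± 0.0467 and 1.34 ± 0.0981 (SD, n = 3 each), and 5.25% of 1409 circRNAs with a tested host separated that way, with 2.48% the other way. The spread between libraries was smaller than counts of this size carry by counting error alone.

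In limma on the log2 ratio of circRNA to host counts, with a pseudocount of 0.5, the Grm3 circle had a log2 difference of 0.86 (SE 0.54, 95% interval -0.28 to 2.00, adjusted p = 0.994). None of the 1409 ratios passed, and 55 had an unadjusted p under 0.05 (3.9%), with 60 under the mouse block (4.26%). The log2 fold change of the circle itself was 0.59 (SE 0.66, adjusted p = 0.999 by edgeR). Its scaled counts also lay apart, at 461 to 583 CPM of back-splice reads contralaterally and 308 to 355 ipsilaterally, as those of 3.81% of circRNAs did, while 4.84% lay apart the other way. The host pointed the other way, at -0.17.

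Grm7 gave rise to 3 circles. The circle of exons 2 to 4 (Grm7-202, chr6:110914327-111080473) joins 3 coding exons of 217, 142 and 155 bases into 514 bases, although it spans 166147 bases of the genome. It had 1, 5 and 2 reads contralaterally and 2, 3 and 4 ipsilaterally, with a log2 fold change of 0.02 (SE 0.67). The form that starts at the same exon and ends in the intron (chr6:110914327-110915171) was more abundant, with 3, 10 and 3 reads against 5, 13 and 8, and a log2 fold change of -0.46 (SE 0.68). Both libraries of mouse 2 were the high ones of that form.

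Exon 8 of Grm7 makes a circle on its own (chr6:111358145-111359080). Its 936 bases are all coding and a multiple of 3. It had 5, 7 and 3 reads contralaterally and 1, 5 and 8 ipsilaterally, and its log2 fold change was 0.32 (SE 0.75). For the 3 Grm7 circles the groups overlapped, adjusted p-values were 0.999 by edgeR, and log2 differences relative to the host were -0.21, -0.66 and 0.45 in the order given, with adjusted p-values of at least 0.994 by limma. None followed the host's higher contralateral level beyond its error. A host difference of 0.19 is far smaller than these standard errors.

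**Figure D4:**
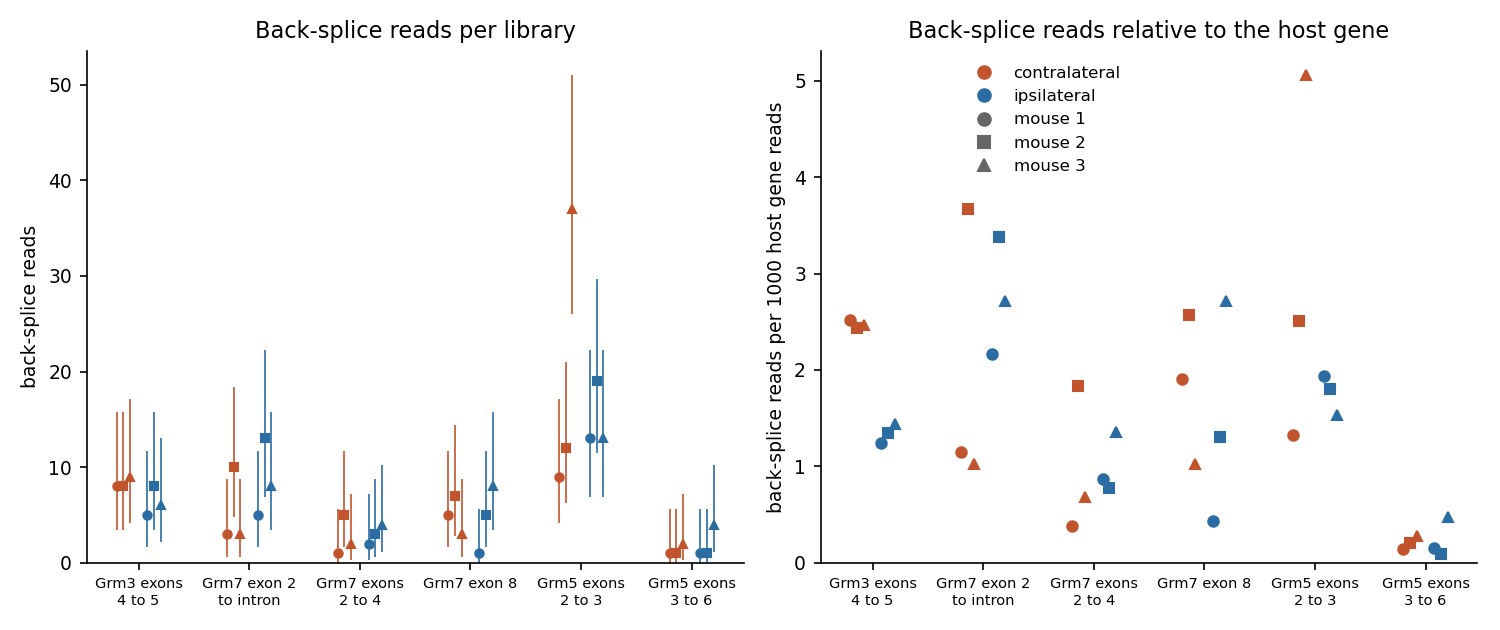
Back-splice reads of the 6 receptor circRNAs per library with 95% Poisson intervals (left) and reads per 1000 host gene reads (right); color gives the hemisphere and symbol the mouse. The 37 reads of Grm5 exons 2 to 3 in contralateral library 3 stand above all others, and the right panel shows the Grm3 circle at 2.43 to 2.52 contralaterally against 1.24 to 1.44 ipsilaterally.

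Genes that act with the receptors were read from 5 lists drawn up by known role, 118 genes in all and all tested, counting once the 3 genes listed under a second symbol too. Of these, 2 were lower contralaterally and 0 higher (background 0.127% and 0.0%), and the median log2 fold change was -0.07. With the mouse as a block 5 were lower and 0 higher (background 0.698% and 0.195%). Both that were lower without the block belong to genes known to be induced by neuronal activity, Homer1 and Arc. Homer1 encodes Homer scaffolds, which bind group I receptors, and Arc drives removal of AMPA receptors downstream of these receptors. Counts per gene do not tell the transcripts of a gene apart. The counts below describe the lists and were not tested as sets.

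In the Gq and calcium release arm used by Grm5, 0 of 20 passed in either direction. The median was -0.13 (0.03 over all tested genes), and 16 of 20 values were negative (44.6% of all genes were). Its smallest p-values belonged to protein kinase C genes, Prkce at -0.27 (adjusted p = 0.820 by edgeR) and Prkca at -0.23 (0.826). The Gi/o arm of group II and III receptors, with adenylyl cyclases and effector channels, was alike: 0 of 22 passed, the median was -0.10 and 17 were negative. There the lowest p-values were those of the inwardly rectifying potassium channel gene Kcnj3, at -0.32 (0.804), and of the G protein subunit gene Gng2, at -0.29 (0.801). Among 20 genes of glutamate and NAAG supply and clearance 0 passed and the median was -0.06. Slc17a8, a vesicular glutamate transporter of minor cell populations in cortex, stood at 1.74 ± 0.392 CPM against 3.52 ± 0.521 (SD, n = 3 each; log2 -1.01, adjusted p = 0.452 by edgeR). Slc1a1, the neuronal glutamate transporter, was at -0.27 (0.806).

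Among receptor partners and desensitisers 1 of 31 was lower contralaterally (background 0.127%), or 4 with the mouse block (background 0.698%), and the list's median was -0.02. Homer1 was at 336, 411 and 485 CPM contralaterally and 928, 699 and 857 CPM ipsilaterally, so no library overlapped. Its log2 fold change was -1.01 (SE 0.17), with an adjusted p of 0.0416 by edgeR. Grasp, which encodes the group I receptor adaptor tamalin, had 26.0, 20.6 and 21.2 CPM contralaterally and 49.6, 31.5 and 31.5 ipsilaterally. Its log2 fold change of -0.73 passed with the mouse block (adjusted p = 0.00207 by edgeR) and not without it (0.380). Rgs4 and Rgs2, which shorten G protein signals, behaved likewise. Rgs4 was at 427 ± 99.8 against 634 ± 42.5 CPM (log2 -0.57, adjusted p = 0.563 without and 0.0329 with the block, by edgeR). Rgs2 was at 32.8 ± 8.49 against 47.7 ± 4.69 CPM (log2 -0.54, 0.660 and 0.0173). All 4 genes had their 3 contralateral libraries below their 3 ipsilateral ones (background 6.29%). They were named for passing on these same values, so the separation describes them and is no further support.

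In the list of local translation and AMPA receptor endocytosis 1 of 25 was lower contralaterally, without the block (background 0.127%) or with it (background 0.698%). The list's median was -0.06. Arc was at 63.9, 126 and 133 CPM contralaterally and 261, 293 and 288 ipsilaterally, with a log2 fold change of -1.38 (SE 0.22) and an adjusted p of 0.0335 by edgeR. Fmr1, whose product holds back translation at synapses, was at -0.35 (adjusted p = 0.748 by edgeR). The calls on Homer1 and Arc changed with the libraries used: 0 of the 118 genes passed without contralateral library 2, ipsilateral library 2 or ipsilateral library 3, 1 passed without contralateral library 1, and 2 passed without contralateral library 3 or ipsilateral library 1. The part of the interneuron, layer 5 and 6 and retrosplenial markers, whose sums were lower on the same side, in the values of these lists was not tested.

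**Figure D5:**
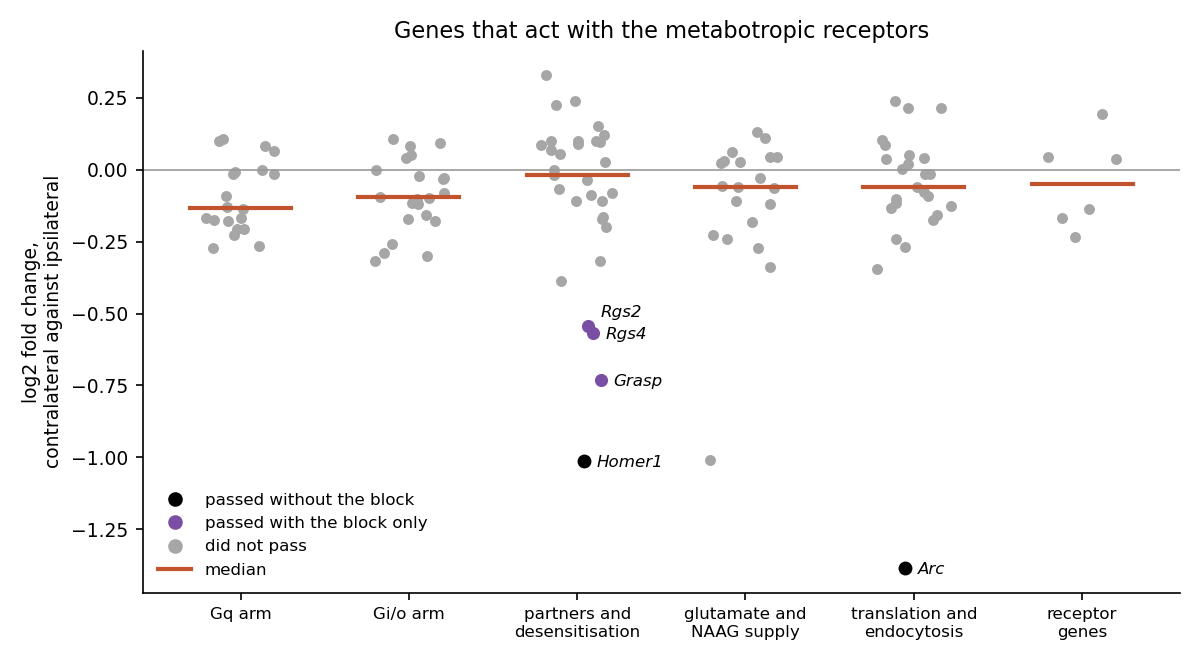
Log2 fold change, contralateral against ipsilateral, of each gene in the 5 lists and of the 6 receptors; points are genes, bars are list medians, and color tells whether a gene passed without the mouse block, with it only, or not. The receptors lie between -0.24 and 0.19, while Homer1 (-1.01) and Arc (-1.38) lie far below their lists' medians.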

How the data were processed

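Total RNA of 6 V1 libraries, contralateral and ipsilateral from each of 3 mice, was counted. The authors deposited raw read counts per Ensembl gene with exon lengths, in a featureCounts layout per the file headers, and raw back-splice read counts per circRNA with coordinates and host gene. GRCm38, HISAT2, featureCounts, limma and DESeq2 appear in the submitters' processing notes. The circRNA caller is not given in the sources used here, nor are the strand setting and annotation release. With strand use unknown, reads of genes that share exon bases on opposite strands cannot be told apart. Deposited normalized circRNA values lack coordinates and were not used here. Symbols, exons and junctions came from GENCODE M21, where 52489 of 52636 IDs were found. TPM used the deposited lengths.

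Tests ran in R 4.3.3 on the counts as deposited: edgeR 4.0.16 (TMM, quasi-likelihood, filterByExpr at a count of 10 and a total of 15, 20473 genes; circRNAs with at least 2 reads in 3 libraries, 1468), limma 3.58.1 for log2 ratios with a pseudocount of 0.5, and Benjamini-Hochberg adjustment over all rows at 0.05. Standard errors come from dividing the size of a log2 fold change by the root of its F statistic. DESeq2 1.42.0, limma-voom, other scalings, filters, left-out libraries and mt-Rnr1 sets were alternatives. The fits were tested on simulated counts. Hemispheres of a mouse are paired by the labels; deviations from group means correlated at 0.431, 0.0775 and 0.172 within mice 1 to 3 and at up to 0.177 between mice, so mouse 1 alone stood out as a pair, and fits with the mouse as a block stand beside the others. Library correlations lay between 0.976 and 0.988, with no duplicate.

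The receptors, gene lists and tests were chosen with earlier results of these data known. Named genes were all receptors and their circRNAs, list genes that passed with or without the block, the 2 of smallest p per list, and the 2 genes most like each receptor with predicted genes passed over; Slc17a7 and the other markers were named after their values were seen.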

Additional observations from a re-analysis of the deposited data

How the results depend on the processing

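In each of 20 other settings 0 of 6 receptor genes passed. Genes passing numbered 26, against 183 with the mouse as a block, 89 with DESeq2, 109 without a filter and 355 with the block and the mt-Rnr1 level. They ranged from 0 to 35 with a library left out, and were 0 without mouse 2 and 14 without mouse 3. Of the 118 list genes, 2 passed, against 5 with the block, 4 without a filter, 0 with a filter of at least 1 CPM in 3 libraries, 1 in the set high in mt-Rnr1, 8 with the block and the mt-Rnr1 level, 0 to 2 with a library left out, 1 without mouse 1 and 0 without mouse 2 or mouse 3. The block changed no call on a receptor gene or circRNA.

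Grm3, Grm4, Grm5 and Grm7 kept their sign in 20 of 20 settings. The log2 fold change of Grm2 was -0.27 in the set high in mt-Rnr1, -0.061 with the block and the mt-Rnr1 level, -0.10 without mouse 1 and -0.0096 without mouse 3, and ranged from -0.39 to 0.33 with a library left out. That of Grm8 was -0.12 in the low set, -0.0090 without mouse 2 and -0.034 to 0.094 with a library left out. The causes were not tested.

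With a library left out 0 to 2 circRNAs passed (2 without ipsilateral library 2, neither from a receptor). The log2 fold change of Grm7 exons 2 to 4 then ranged from -0.73 to 0.38 and that of Grm5 exons 2 to 3 from -0.17 to 0.75, and the ratios to the host of Grm7 exons 2 to 4 from -0.72 to 0.19 and of Grm7 exon 8 from -0.096 to 0.98. Grm7 exons 2 to 4 was -0.0065 with DESeq2, -0.21 after quantile normalization and -0.94 without mouse 2, and its ratio 0.15 without mouse 1 and 0.11 without mouse 3. Grm7 exon 8 was -0.16 without mouse 1 (ratio -0.17) and -0.10 without mouse 2. Grm5 exons 2 to 3 was -0.27 in the low set and -0.23 without mouse 3 (ratio -0.012). Receptor genes that differed between mice numbered 1 to 3 with a library left out. As FPKM with TMM-scaled libraries, a change of unit, levels were 58.4 for Grm3, 31.8 for Grm5, 21.9 for Grm7, 8.66 for Grm2, 4.88 for Grm4 and 2.28 for Grm8, in the same order. Precision is limited by 3 mice and, for circRNAs, by a median of 6 reads per library.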
